A study of Homo sapiens with 6 samples.

Results

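The genes described here are DNA repair genes, read in a human colon carcinoma line whose mismatch repair is known to be deficient. The list held 47 symbols, from mismatch repair, the double-strand break pathways, excision repair, the checkpoint kinases and direct reversal of alkylation. A gene was a member where its symbol, in upper case, stood in the deposited mRNA tables, and its transcripts were then summed. Of the 47 symbols, 46 were found among 19871, and all 46 reached a mean of 50 counts over the groups, as did 11907 symbols in all. MRE11A had no row under that spelling, and the current symbol MRE11 is given separately below.

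HCT116 cells, labelled as colon tissue, were sequenced in 3 groups of 2 libraries each. The groups were NC, the negative control, GAS5, in which the long noncoding RNA GAS5 was introduced on a plasmid, and siYAP, in which siRNA against the transcriptional coactivator YAP was used. The labels give no time, clone or passage, list all 3 groups under siRNA, and do not name the control reagent, so whether the plasmid had a plasmid control cannot be told. The deposited tables hold 1 mean per group and transcript, so no value below has a replicate error and no difference was tested between libraries. Intervals are 95% Wilson intervals for counting error only, with each mean of 2 libraries taken as 1 count. They leave out variation between libraries, and they are wider than the counting error of both libraries together. With the summed counts, more intervals could exclude no change or lie wholly beyond 1.5-fold. A gene was called where it lay at least 1.5-fold from NC after scaling, a rule of size and not a test.

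DNA repair is divided among pathways that each recognize a kind of lesion. Mismatch repair corrects copying errors behind the replication fork, excision repair replaces damaged bases or stretches of a strand, and double-strand breaks are rejoined either by copying a sister strand (homologous recombination) or by direct ligation (non-homologous end joining). Many genes of homologous recombination and mismatch repair are known to be expressed mainly in S phase, whereas many, but not all, excision repair genes are expressed throughout the cycle. In tumours without mismatch repair, runs of a repeated base are not corrected after polymerase slippage, and such runs within coding sequence are known frameshift sites.

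The reference coding sequences of the members were therefore read first, from the transcript of highest mean FPKM among those of each gene that have a coding sequence in GENCODE 29 (GRCh38). A run of at least 8 identical bases was found in 16 of 46 members (34.8%), against 6.14% of 11786 expressed genes. Of the 16 runs, 14 were of A, and the base of the run was not counted over all genes. A run of at least 9 was found in 7 members (15.2%), against 1.42%. Members have longer coding sequences, with a median of 2641.5 bases against 1311, and among genes of at least 2000 coding bases the share with a run of at least 8 was 50% of 28 members and 12.3% of 3285 genes. These are counts in the reference sequence, and no variant was measured.

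The runs shown are those of 3 mismatch repair genes and of 5 members with a run of 9 or 10, since runs of this kind are the frameshift sites described above. Each is given in coding orientation, 5′ to 3′, with the run in capitals.
MLH3: agagaaagagAAAAAAAAAgaatctagca
MSH3: atgttagggacAAAAAAAAgggcaacattt
PMS2: gactggagaagAAAAAAAAgacgtgtccat
RAD50: aatcagagctAAAAAAAAAggaaaagcgg
ATR: tttcctactgAAAAAAAAAAtacctagtcc
CHEK1: gactggaaagAAAAAAAAAcatacctcaa
BLM: caagactaggAAAAAAAAAtgaaagctct
RBBP8: acagcctgggAAAAAAAAAcatctgaaaa

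On GRCh38, the MLH3 stretch lies in exon 1 of 12 of ENST00000556740 (chr14:75047891-75047919, minus strand). That of MSH3 is in exon 7 of 24 of ENST00000265081 (chr5:80675085-80675114, plus strand) and that of PMS2 in exon 11 of 15 of ENST00000265849 (chr7:5987515-5987544, minus strand). The RAD50 stretch is in exon 13 of 25 of ENST00000378823 (chr5:132595750-132595778, plus strand) and the ATR stretch, with 10 A the longest of those printed, in exon 10 of 47 of ENST00000350721 (chr3:142555888-142555917, minus strand). CHEK1 carries its run in exon 7 of 14 of ENST00000428830 (chr11:125635473-125635501, plus strand), BLM in exon 7 of 22 of ENST00000355112 (chr15:90760899-90760927, plus strand), and RBBP8 in exon 11 of 19 of ENST00000327155 (chr18:22992880-22992908, plus strand). The remaining members with such a run were MSH6 with 8 C, XRCC2 with 8 T, BRCA1, BRCA2, FANCM, LIG3 and WRN with 8 A, and PRKDC with 10 A.

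**Figure D1:**
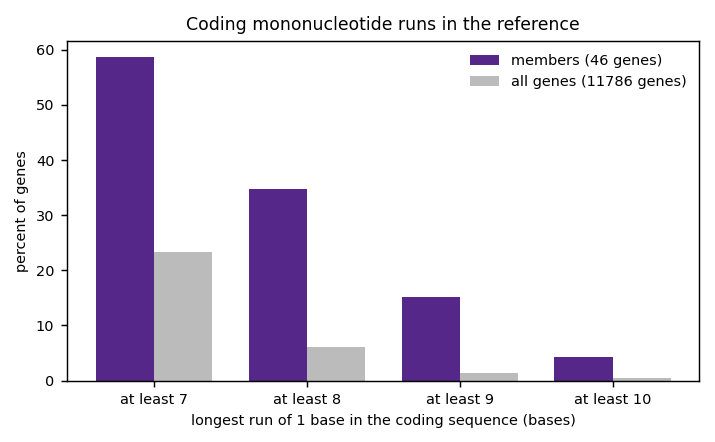
Share of genes, in percent, whose coding sequence in the reference holds a run of 1 base of at least the length on the horizontal axis, for 46 DNA repair members (purple) and 11786 expressed genes (grey). The members stand at 34.8% for a run of at least 8 and at 15.2% for at least 9, and all genes at 6.14% and 1.42%; coding length differs between the sets.

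The levels of the members in NC covered a 284-fold range of summed FPKM, which is per length and can be compared between genes. The 5 highest held 63% of the members' summed FPKM. XRCC6 and XRCC5, the Ku subunits that cap broken ends, stood at 461 and 215 FPKM, APEX1, the abasic site endonuclease, at 161, PARP1, the strand break sensor, at 125, and PRKDC, the kinase recruited by Ku, at 96.2. At the other end were MSH3, which with its partner reads insertion and deletion loops, at 1.63 FPKM (7.26th percentile of all expressed genes), ERCC4, a nuclease subunit, at 2.46, LIG4, the end-joining ligase, at 2.75, FANCM, a fork-remodelling translocase, at 3.25 and BRCA2, the recombinase loader, at 3.26. The median member stood at 14.4 FPKM, against 11.6 over all expressed genes.

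In siYAP cells most repair genes were lower than in NC. Of 46 members, 40 had a log2 fold change below 0 (50% of all genes tested), and the median was -0.34 against -0.0006 over all genes. EXO1, BRCA1, XRCC2, BRCA2, FANCM, BLM, RAD54L and MSH6 were at least 1.5-fold lower, 8 of 46 members, where 4.19% of all genes tested were called, and no member was called higher (2.94% of all genes). At 2-fold, 3 members were lower, against 0.512% of all genes. The counting interval, taken on the mean counts, lay below 0 for 36 members, above 0 for 3, and held 0 for 7.

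The targeted gene was lower in siYAP, as its label says. YAP1 had 3480 mean counts in NC, 2912 scaled counts with GAS5 and 1537 with siYAP. RNA of GAS5 itself was not analysed here, so the GAS5 label was not checked. Epithelial genes were abundant in every group (EPCAM 134 to 147 FPKM, KRT8 1274 to 1697 FPKM), and the intestinal factor CDX2 lay between 3.52 and 4.33 FPKM. But the intestinal genes CDX1, VIL1 and CDH17 were at or near 0, and the keratin KRT20 lay between 0.265 and 0.365 FPKM. Of 10 markers of other cell types, PTPRC and DCN were at 0 in all groups, and COL1A1, the highest, lay between 2.2 and 3.33 FPKM. The 10 summed to 2.395 FPKM in NC, 4.82 in GAS5 and 3.06 for siYAP. Besides COL1A1, CD14 was higher in GAS5 (0.765 FPKM, against 0.095 in NC), as was ALB (0.64 against 0.035), both from few counts.

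The mismatch repair genes split widely in siYAP. EXO1, the exonuclease that removes the mismatched strand, had 1122 counts in NC, 1141 with GAS5 and 541 with siYAP, all scaled to NC. This gave a log2 fold change of -1.05 in siYAP (95% interval -1.20 to -0.90), the lowest of all members. MSH6, which with its partner reads base mismatches, had 2110.5 counts in NC, 2636 with GAS5 and 1386 with siYAP, so that it was highest in GAS5 and lowest in siYAP. The log2 fold change of MSH6 was -0.61 in siYAP (interval -0.71 to -0.51) and 0.32 in GAS5.

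MSH3, the alternative partner to MSH6, had 183.5 counts in NC, 233 with GAS5 and 193 with siYAP. Its siYAP log2 fold change was 0.07, with an interval of -0.22 to 0.37 that held 0. The MutL-type members lay between these. MLH3 had 695.5 counts in NC, 621 with GAS5 and 508 with siYAP (log2 fold change -0.45), PMS1 had 779, 739.6 and 615 (-0.34), and PMS2, the endonuclease of the complex, had 1361.5, 1341 and 1239 (-0.14). All 3 were lowest in siYAP, but none was called. Reads of PMS2 can be shared with its pseudogene copies, so its level is uncertain.

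The homologous recombination genes formed the role with the lowest median in siYAP among those of more than 4 genes. The Fanconi anemia pathway, with 4 members, had a slightly lower median (-0.504 against -0.500). All 11 recombination members were below NC in siYAP (50% of all genes), with a median log2 fold change of -0.50. Of these, 5 were called lower (45.5%, against 4.19% of all genes). BRCA1, a scaffold that starts end resection, had 1785 counts in NC, 1475 with GAS5 and 886 with siYAP. For BRCA1 the log2 fold change was -1.01 in siYAP (interval -1.13 to -0.89) and -0.27 in GAS5 (interval -0.38 to -0.17), so both treated groups lay below NC.

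BRCA2 had 1004 counts in NC, 1102 with GAS5 and 512 with siYAP, a log2 fold change of -0.97 in siYAP (interval -1.13 to -0.81). XRCC2, a recombinase paralog, had 548.5 counts in NC, 486 with GAS5 and 272 with siYAP, a log2 fold change of -1.01 (interval -1.22 to -0.79). With EXO1 and BRCA1, these were the 4 members whose whole counting interval, taken on the mean counts, lay beyond 1.5-fold. BLM, the helicase that dissolves recombination intermediates, had 1046 counts in NC, 1226 with GAS5 and 641 with siYAP (-0.70, interval -0.85 to -0.56). RAD54L, a motor that drives strand exchange, had 801 counts in NC, 850.0 with GAS5 and 496 with siYAP (-0.69, interval -0.86 to -0.53).

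For BLM and RAD54L the interval reached inside 1.5-fold. The 6 recombination members not called ranged from -0.50 for RBBP8, the resection factor, to -0.20 for XRCC3, another recombinase paralog. Between them stood PALB2, which bridges BRCA1 and BRCA2, RAD52, an annealing protein, RAD51C and the helicase WRN.

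In the Fanconi anemia pathway, which unhooks crosslinks between strands, all 4 members were below NC in siYAP, with a median of -0.50. FANCM had 446 counts in NC, 541 with GAS5 and 259.8 with siYAP, a log2 fold change of -0.78 (interval -1.005 to -0.55). FANCI, a subunit of the clamp that is ubiquitinated at crosslinks, was the member just outside the call at -0.57, and MSH6, at -0.61, was just inside it. FANCD2, the other clamp subunit, stood at -0.43 and FANCA, of the ligase core, at -0.10. FANCD2 has pseudogene copies, and its count is uncertain.

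None of the remaining break repair and signalling members was called in siYAP. Over all genes, 4.19% were called lower and 2.94% higher, so 0 calls among so few members is near those shares. Among the checkpoint kinases, CHEK1 stood at -0.48 in siYAP, ATR, its upstream kinase, at -0.34, ATM, which answers double-strand breaks, at -0.31 and CHEK2 at -0.25. In end joining, PRKDC stood at -0.42, XRCC5 and XRCC6 each at -0.34, TP53BP1, which limits resection, at -0.29 and LIG4 at -0.14, and XRCC4, the partner of LIG4, at 0.01. The break sensor subunits RAD50 and NBN stood at -0.36 and -0.23. MRE11, the nuclease of that complex, had 505 counts in NC, 406 with GAS5 and 288 with siYAP. Its log2 fold change in siYAP was -0.81 (interval -1.03 to -0.60), at least 1.5-fold lower. It is the listed MRE11A under its current symbol and is not in the member counts above.

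The excision repair members lay on both sides of NC in siYAP, and none was called. For so few genes, 0 calls is near the 4.19% called lower and 2.94% called higher over all genes. All 7 base excision and single-strand break members were below 0 in siYAP, from -0.45 for PARP2, a second break sensor, to -0.09 for APEX1. Of the 5 nucleotide excision members, 3 were above 0. ERCC2, a helicase of the factor that opens DNA around bulky lesions, had 2063 counts in NC, 2154 with GAS5 and 2846 with siYAP, a log2 fold change of 0.46 (interval 0.38 to 0.55). ERCC1, partner of the ERCC4 nuclease, had 2733 counts in NC, 2821 with GAS5 and 3326 with siYAP (0.28, interval 0.21 to 0.36).

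MGMT, which takes alkyl groups off guanine in a single step, had 312 counts in NC, 313 with GAS5 and 431 with siYAP, a log2 fold change of 0.46 (interval 0.25 to 0.68). ERCC2, MGMT and ERCC1 were the 3 members whose counting interval lay above 0 in siYAP, though none was called higher. XPA, a damage verifier, and ERCC4 had intervals that held 0, as had ERCC5, a nuclease whose gene is also read through from its neighbour.

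**Figure D2:**
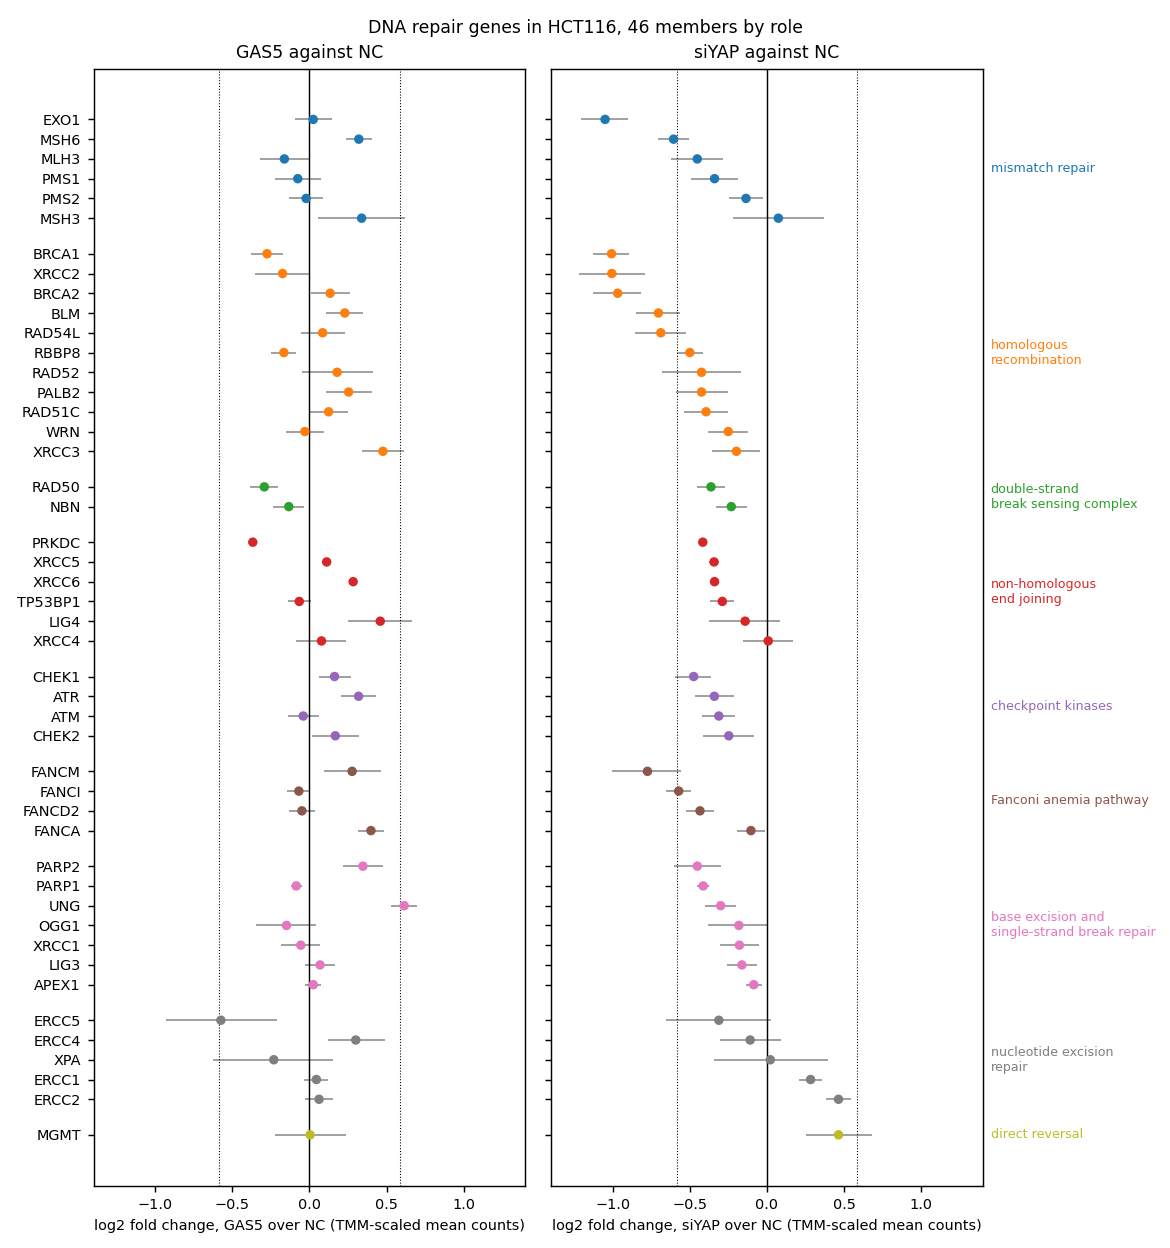
Log2 fold change over NC of the 46 members, grouped by role in colour, in GAS5 (left) and siYAP (right). Points are TMM-scaled mean counts of 2 libraries, and dotted lines mark 1.5-fold. Grey bars are 95% intervals for counting error only, computed on the rounded mean counts. In siYAP 40 members lie left of 0, and in GAS5 19.

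In GAS5 cells 1 repair gene was called. The median member stood at 0.05, and 19 of 46 were below 0 (49.8% of all genes tested). UNG, the uracil glycosylase, was the only member called higher (2.55% of all genes), and no member was called lower (1.99% of all genes). The counting interval, taken on the mean counts, lay above 0 for 17 members, below 0 for 8, and held 0 for 21. UNG had 1862 counts in NC, 2852 with GAS5 and 1511 with siYAP, so GAS5 was highest and siYAP lowest. For UNG the log2 fold change was 0.61 in GAS5 (interval 0.53 to 0.70), which reaches inside the 1.5-fold limit, and centring genes by transcript length took it to 0.58, under the limit.

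The next highest in GAS5 were XRCC3 and LIG4. XRCC3 had 745.5 counts in NC, 1038 with GAS5 and 649 with siYAP (0.48 in GAS5), and LIG4 had 325.5, 448 and 295 (0.46). Both were highest in GAS5 and lowest in siYAP. The lowest were ERCC5, with 160.4 counts in NC, 107 with GAS5 and 129 with siYAP (-0.57 in GAS5, interval -0.93 to -0.21), PRKDC, with 35656, 27638 and 26716 (-0.37), and RAD50, with 2244, 1832 and 1744 (-0.29). These 3 were below NC in both treated groups. Total count scaling took ERCC5 to -0.60 and centring on length to -0.63, both past the limit. No role had a median beyond -0.21 or 0.17 in GAS5. Because both comparisons use the same NC means, a high or low NC value would shift a gene the same way in both.

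**Figure D3:**
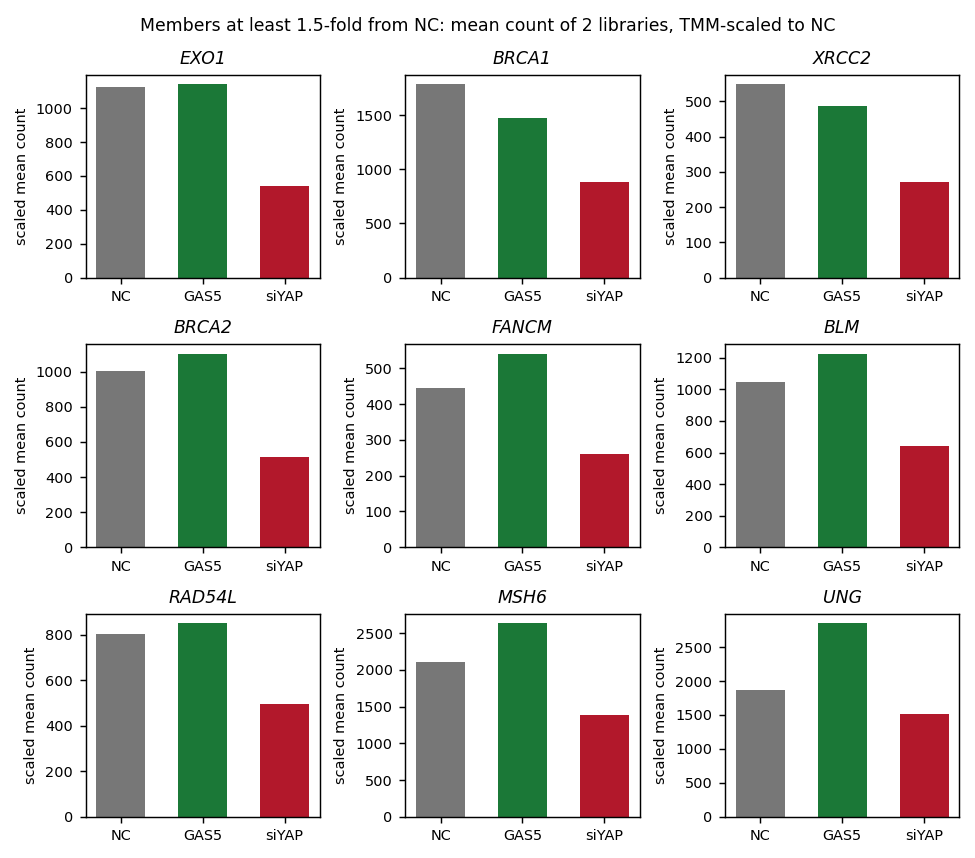
TMM-scaled mean counts, from 0, of the 9 members at least 1.5-fold from NC in either comparison (grey NC, green GAS5, red siYAP; each bar is 1 mean of 2 libraries, with no replicate error). In the first 8 panels siYAP is the lowest bar, and in UNG the GAS5 bar is the highest at 2852.

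Other genes of the same pathways, 99 with enough counts, were read for comparison. In siYAP 74 of 99 were below 0 (50% of all genes), and the median was -0.15. Of these genes, 12 (12.1%) were called lower (4.19% of all genes) and 0 higher (2.94% of all genes). POLQ, the polymerase of microhomology joining, had 905.5 counts in NC, 886 with GAS5 and 467 with siYAP (-0.95). RMI2, a partner of BLM, stood at -0.90 and RAD54B, a relative of RAD54L, at -0.83. On the upper side were SLX1A, a junction nuclease, at 0.42, NEIL2, a glycosylase for oxidized bases, at 0.37 and MPG, the alkyladenine glycosylase, at 0.37. By pathway, 6 of the 21 further homologous recombination genes were called lower, 3 of 18 checkpoint genes, 2 of 14 Fanconi genes and 1 of 18 base excision genes (5.56%), the last near the 4.19% of all genes. None of the 18 nucleotide excision, 9 end joining and 2 direct reversal genes was called lower, which for so few genes is near that share.

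In GAS5 29 of the 99 were below 0 (49.8% of all genes), 1 was called lower (1.01%, against 1.99% of all genes) and 0 higher (2.55% of all genes). This was SLX1A at -1.04, whose near-identical copy SLX1B makes its count uncertain. MUS81, another junction nuclease, stood at -0.43 and FAM175A, a subunit of a BRCA1 complex, at -0.39. The highest were FEN1, the flap endonuclease, at 0.51, CLSPN, the adaptor for CHEK1, at 0.50 and FAAP24, the partner of FANCM, at 0.43.

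Genes of the cell cycle were also different between the groups. All 20 S-phase genes read were below NC in siYAP (50% of all genes), and 12 were called lower (4.19% of all genes). Their median was -0.64, and their summed level was 1281 FPKM in NC, 1508 with GAS5 and 819 with siYAP. All 20 G2 and M-phase genes were below NC as well, 10 of them called, with a summed level of 1239 FPKM in NC, 1289 with GAS5 and 921 with siYAP. In GAS5, 18 of the 20 S-phase genes were above NC, with a median of 0.26, where 49.8% of all genes were below NC. Among the 20 G2 and M-phase genes, 12 were below NC in GAS5, with a median of -0.02, although their summed level was higher. Fewer cells in S phase and less RNA per cell cannot be told apart in these bulk samples, and the part of the cell cycle in the values of the repair genes was not tested.

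A motif of S-phase genes was looked for in the RefSeq promoter windows (GRCh38.p14), which run from 250 bases before each start to 50 after it. The E2F words TTTGGCGC, TTTCCCGC, TTTGCCGC and TTTCGCGC were searched on both strands. At least 1 window held a word in 9 of 41 members (22%), in 635 of 9295 expressed genes (6.83%) and in 10 of 16 S-phase genes (62.5%). The 9 members were EXO1, MSH6, MSH3, PMS2, XRCC2, FANCD2, FANCA, UNG and XRCC6, and those called lower in siYAP held 3 of them. The windows do not include NBN, PRKDC, WRN, XRCC5 and FANCI. The word TTTGAA of mitotic genes was in 9.76% of members and 13.3% of genes.

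The stretch around the word is shown for EXO1, the lowest member in siYAP, and for MSH3, whose interval in the same group held 0. A word on the gene's strand is in capitals in each, and the MSH3 stretch holds a further one on the other strand, read as GCGCGAAA here, which overlaps the capitals.
EXO1: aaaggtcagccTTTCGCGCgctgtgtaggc
MSH3: gcgcggtcaagTTTGGCGCgaaattgtggc
These lie at chr1:241848197-241848226 and chr5:80654534-80654563, both on the plus strand. A match in letters is a description of the window only.

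The siYAP fold change of all genes ran with GC content. Over 11787 genes with a sequence, in 10 bins, the median log2 fold change in siYAP went from -0.19 in the bin of lowest GC to 0.27 in the highest, and in GAS5 from -0.06 to 0.08. GC content was that of the transcript of highest mean FPKM with a reference sequence, which for ERCC2 is the short ENST00000586131, with 15.3% of its counts in NC. The members were lower in GC than all genes, with a median of 43.9% against 50%. ERCC2, ERCC1 and MGMT, the members highest in siYAP, had 60.4%, 58.1% and 57.5% GC, and BRCA2, among the lowest, had 36.2%. Others went against this order, with RAD54L at 53.1% GC and -0.69, XRCC3 at 62.9% and -0.20, LIG4 at 35.2% and -0.14 and XRCC4 at 36.4% and 0.01. Spearman's rho of GC content and siYAP log2 fold change, across genes that share the same libraries, was 0.33 over the 46 members and 0.55 over all genes. For transcript length in place of GC content, rho was -0.42 over the members and -0.14 over all genes. The median transcript length was 3358 bases in the members and 2603 in all genes.

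Each gene was then read against the median of its GC bin, an alternative chosen after the data were seen. The median member moved from -0.34 to -0.25 in siYAP, and 38 of 46 were below 0. EXO1 (-0.88), XRCC2 (-0.83), BRCA1 (-0.81), BRCA2 (-0.78) and RAD54L (-0.72) were still called lower, 5 in place of 8, with 2.85% of all genes called on that scale. FANCM (-0.58), BLM (-0.51) and MSH6 (-0.50) were not. MSH6 also fell under the limit by its most abundant transcript alone (-0.58) and after centring on length (-0.57). The 16 members with a coding run of at least 8 had a median of -0.46 in siYAP and a median GC of 41.7%, and the other 30 had -0.30 and 48.3%.

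**Figure D4:**
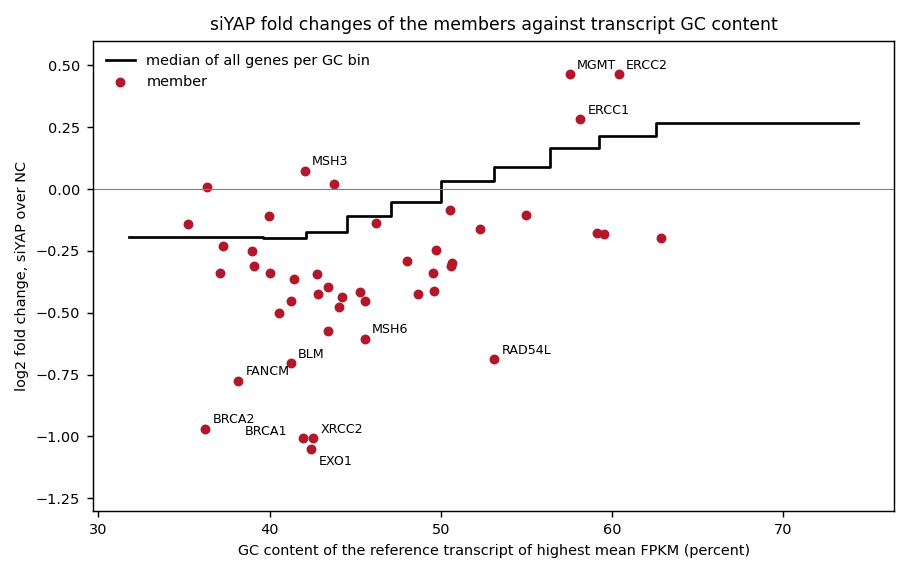
Log2 fold change of siYAP over NC against the GC content, in percent, of each of the 46 members (red points), taken from the transcript of highest mean FPKM that has a reference sequence. The black steps are the median of all expressed genes in 10 GC bins, from -0.19 to 0.27; EXO1, BRCA1, XRCC2, BRCA2 and RAD54L lie furthest below the steps.

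Single transcripts of the members were read last, and their counts are the authors' estimates, which divide shared reads among similar transcripts. Of 46 members, 43 had more than 1 listed transcript. The share of the most abundant one shifted by a median of 3.43 percentage points with GAS5 and 2.47 with siYAP. It shifted by more than 10 points in 7 members with GAS5 and 11 with siYAP, and by more than 20 points in siYAP in UNG, XPA and LIG4. Such shifts were not counted over all genes, so whether the members differ from other genes in this is not known.

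UNG has 2 listed transcripts that begin at separate first exons of the gene (chr12:109097574-109110992, plus strand). They share 811 coding bases at the 3′ end, and each has a start of its own, which gives a nuclear form of 313 codons and a mitochondrial form of 304 codons. The first 30 bases of each coding sequence are shown because the separate starts are what tells the forms apart, with the start codon in lower case.
nuclear form, ENST00000242576: atgATCGGCCAGAAGACGCTCTACTCCTTT
mitochondrial form, ENST00000336865: atgGGCGTCTTCTGCCTTGGGCCGTGGGGG
These are at chr12:109097680-109097709 and chr12:109098327-109098356 on GRCh38.

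The nuclear form of UNG, which removes uracil at replication forks, had 1159.7 counts in NC, 1994 with GAS5 and 445 with siYAP. The mitochondrial form had 702 counts in NC, 858 with GAS5 and 1066 with siYAP. The nuclear form was thus highest in GAS5 and lowest in siYAP, while the mitochondrial form was highest in siYAP. In siYAP the log2 fold change was -1.38 for the nuclear form (interval -1.54 to -1.22) and 0.60 for the mitochondrial form (interval 0.46 to 0.74), and the gene sum was -0.30. The nuclear form made up 62.3% of the UNG counts in NC (interval 60.1 to 64.5), 69.9% with GAS5 (68.1 to 71.6) and 29.4% with siYAP (27.1 to 31.9), shares that do not depend on scaling. The forms were singled out after their values were seen. The E2F word of UNG lay in the window of the second start, not of the first.

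**Figure D5:**
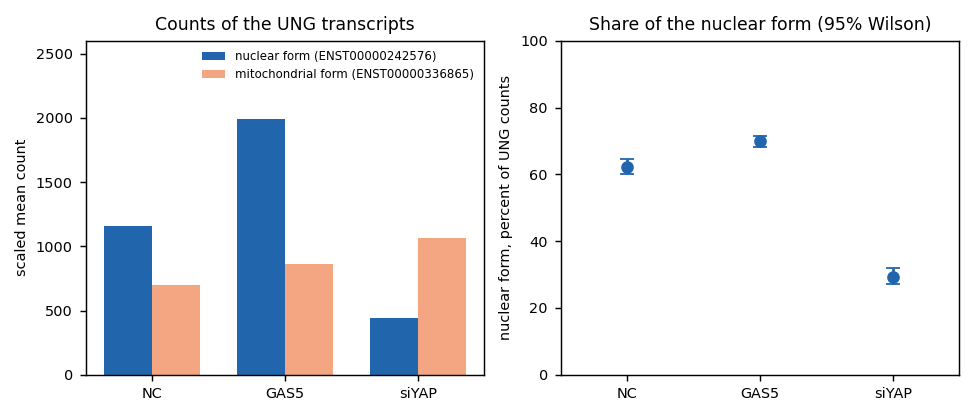
Left, TMM-scaled mean counts of the nuclear (blue) and mitochondrial (orange) transcripts of UNG in each group. Right, the nuclear form in percent of UNG counts, at 62.3% in NC, 69.9% with GAS5 and 29.4% with siYAP. Bars are 95% Wilson intervals for counting error only, computed on the rounded mean counts.

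In other members the balance of transcripts differed more than the sum did in siYAP. In XRCC4, ENST00000338635 had 226 counts in NC, 241 with GAS5 and 99.2 with siYAP, while the assembled transcript TCONS_00113450 had 220.1, 219 and 337, and the gene sum stood at 0.01 in siYAP. In LIG4, ENST00000442234 had 104, 179.9 and 31.1 counts and ENST00000405925 had 95.1, 73.0 and 151. In XPA, ENST00000375128 had 84.6, 40.8 and 46.3 counts and the assembled TCONS_00143526 had 34.4, 60.3 and 74.6, so the first was the less abundant of the pair in both treated groups; with Ensembl transcripts alone the gene stood at -1.03 in GAS5, against -0.23 for the full sum.

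In NBN, ENST00000265433 had 1618 counts in NC, 1557 with GAS5 and 1125 with siYAP, and the less abundant ENST00000409330 had 105, 5.90 and 347. The second transcript thus made up 5.99% of NBN in NC, 0.37% with GAS5 and 23.4% with siYAP. In BLM, ENST00000355112 had 955, 997 and 479 counts, and its log2 fold change of -0.99 in siYAP was lower than that of the gene sum. ENST00000560509 of BLM had 66.5 counts in NC, 191 with GAS5 and 162 with siYAP, above NC in both.

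For 5 member transcripts a group was listed at 0 while another had at least 50 mean counts. Transcripts of this kind were not counted over all genes, so 5 has no share to be set against. In CHEK2, ENST00000328354 had 202 unscaled counts in NC, 286 with GAS5 and 0 with siYAP, while ENST00000404276 had 157 scaled counts in NC, 116 with GAS5 and 290.1 with siYAP. ENST00000634433 of BRCA1 had 67.6 unscaled counts in NC, 17.1 with GAS5 and 0 with siYAP, ENST00000413546 of TP53BP1 had 68.7, 163 and 0, and TCONS_00022055 of ATM had 72.1, 37.5 and 0. ENST00000399725 of RBBP8 was the one listed at 0 in GAS5, with 58.2 in NC and 38.3 in siYAP. A 0 in such estimates can come from the division of shared reads, and no fold is given for these.

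In BRCA1 and ATM the balance between abundant transcripts differed too. ENST00000357654 of BRCA1 had 1039 counts in NC, 1066 with GAS5 and 576 with siYAP, and ENST00000493795 had 321, 61.9 and 132. The first was level with NC in GAS5 (log2 fold change 0.04, interval -0.09 to 0.16), whereas the second stood at -2.34, and the gene sum at -0.27. In ATM, ENST00000278616 went from 50.4% of the counts in NC to 37.4% with GAS5 and 42.2% with siYAP. EXO1 kept its shares within narrower limits, with 67.1% in NC, 64.4% with GAS5 and 68% with siYAP for ENST00000366548, and both of its most abundant transcripts were lower in siYAP, at -1.03 and -1.20.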

How the data were processed

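Strand-specific lncRNA libraries (dUTP second strand, Illumina sequencing) were made from HCT116 cells, 2 per group. The authors deposited 2 mRNA tables, each with expected counts and FPKM per transcript as 1 mean per group, NC identical in both. The deposited expected counts are estimated counts without further normalization, and the deposited FPKM values are fragments per length and library size. The submitters' processing notes name TopHat2 2.1.1. The counter, its use of strand, the genome build and the control reagent are not given in the sources used here. Columns of the authors' own comparisons (log2 fold change, p-value, FDR and a significance flag) were not used. Growth medium is McCoy's 5a per the labels and RPMI per the study's methods.

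Tables were joined by identifier and counts were summed by symbol. The 339 transcripts without a symbol (at most 0.224% of counts) were left out. Group totals were 25521577 to 27206123 mean counts. Means were not rounded for fold changes. Scaling used TMM (edgeR 4.0.16, R 4.3.3) on genes with a mean of at least 50, and log2 fold changes a prior count of 2. Calls were at 1.5-fold. Wilson intervals (scipy 1.17.1, Python 3.11.15) used the rounded mean counts. Scaling was tested on simulated data. The planned quasi-likelihood test needs libraries and could not be run. GENCODE 29 and RefSeq gave sequences, matched by transcript identifier and symbol. The most abundant transcript was taken by mean FPKM for sequences and by mean count for fold changes and shares. Coordinates are of the reference, whose build may not be the authors'.

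All members could be named. Values in every group were given for mismatch repair genes, called members, the 3 largest changes in each direction, the levels at both ends, leading members of each role and, for transcripts, the 2 most abundant and every one listed at 0 in a group with at least 50 counts in another. Members and lists were chosen with earlier results of these data known. Alternatives were DESeq2 1.42.0 size factors, total counts, FPKM ratios with a pseudocount of 0.1, other filters, a prior of 0.5, other transcript sets, a 2-fold call, and GC and length centring.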

Additional observations from a re-analysis of the deposited data

How the results depend on the processing

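No paired analysis was possible because each treatment is deposited as a single averaged value per transcript, and for the same reason leaving out a replicate and the DESeq2 test were not run. Under 11 alternatives, 2 of them chosen after the data were seen, the median member stayed between -0.42 and -0.25 in siYAP and between 0.01 and 0.06 in GAS5, and no called member changed sign. Members called lower in siYAP, 8 at 1.5-fold, numbered 3 at 2-fold and 5 after centring on GC bins, and members called higher, 0, numbered 2 by the most abundant transcript alone (XRCC4 and LIG4), where 5.07% of all genes were called higher. In GAS5, members called lower, 0, numbered 1 under total count scaling (ERCC5), 1 with Ensembl transcripts only (XPA), 1 by the most abundant transcript (XPA) and 1 after centring on length (ERCC5). By the most abundant transcript 4.81% of all genes were lower and 4.48% higher in GAS5, and with Ensembl transcripts 3.26% were lower. Members called higher there, 1, numbered 2 by the most abundant transcript, 0 at 2-fold and 0 after centring on length. Among the other repair genes, those called lower in GAS5, 1, numbered 2 with Ensembl transcripts and 3 by the most abundant transcript, and those higher, 0, numbered 5 by the latter. In siYAP, those called higher, 0, numbered 1 by the most abundant transcript, and those lower, 12, numbered 0 at 2-fold and 9 to 17 under the 1.5-fold alternatives. Members with a coding run of at least 8 numbered 16, and 17 with the longest coding sequence. The counts at 2-fold follow from the stricter limit, and the cause of the other shifts was not tested. At this depth the median of all genes lay between -0.04 and 0.0011 under each scaling. Genes of few counts, such as ERCC5, XPA and MSH3, have the widest counting intervals.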
